A study of Mus musculus with 24 samples.

Results

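The subunits of the proteasome were followed across 2 culture media and a knockdown in C2C12 cells, an established line of mouse myoblasts that fuses into myotubes when the medium is changed. Members were all probe sets whose single annotated symbol began with Psma, Psmb, Psmc, Psmd, Psme or Psmg and a digit, which gave 102 of 45137 probe sets that were not controls: 81 on the first of 2 Affymetrix mouse array designs (called MA in the labels) and 21 on the second (MB). They carried 48 of the 18193 symbols on the 2 designs. Of these, 46 name proteasome subunits, activators or assembly factors, and Psmc3ip and Psme3ip1, named after a subunit they bind, are no parts of the particle and are given apart. The cells were transduced with empty vector (pSuperR) or with pSuperR carrying a short hairpin RNA against p68, the RNA helicase encoded by Ddx5, and each population was sampled in growth medium (GM) and in differentiation medium (DM). Each of the 4 groups had 3 arrays of each design, 24 in all, with replicate numbers 1, 3 and 4 for vector cells in GM on MA, 2, 3 and 4 for shRNA cells in GM on MA, and 1, 2 and 3 elsewhere. The series describes its aim as the study of muscle differentiation under interference with p68/p72, while the labels of the samples name p68 alone. The labels give no time in DM, and do not say whether replicates were separate cultures, so the p-values measure only the spread between arrays, which may be technical.

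The proteasome is the protease that degrades ubiquitin-tagged proteins. Its barrel-shaped 20S core is built of stacked alpha rings (Psma genes), which form the gate, and beta rings (Psmb genes), of which Psmb5, Psmb6 and Psmb7 encode the catalytic subunits. The 19S cap has a base of unfolding ATPases (Psmc genes) and scaffold or ubiquitin-binding subunits, and a lid that includes the deubiquitinase Psmd14. In cells exposed to interferon, Psmb8, Psmb9 and Psmb10 replace the constitutive catalytic subunits and the PA28 activator of Psme1 and Psme2 binds the core, a form known for making peptides for MHC class I. In muscle, the ubiquitin-proteasome pathway is best known for its part in protein loss during wasting.

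On MA, 65 of the 81 member probe sets reached a signal of 30 on at least 3 of 12 arrays and were tested, 63 of them for 42 proteasome genes. The 16 below that limit never exceeded 52.9, and 13 of them belong to genes with another tested probe set. Psma8, Psmb8 and Psmb9 had none. Where a gene had several tested probe sets, as 16 MA genes did, values are those of the set with the highest mean signal unless another is named. Signals are the authors' deposited MAS5 intensities, and every change is a difference of mean log2(signal + 15) with its standard error and limma's p-value adjusted over all tested probe sets of the design by the Benjamini-Hochberg method, called at 0.05. With 3 arrays against 3 an exact permutation test cannot go below p = 0.1, so gene-wise calls rest on the moderated test.

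The cells carried the muscle programme: 6 of 7 myoblast and myotube markers rose in DM in vector cells and 5 of 7 in shRNA cells, and Myog, the myogenic factor of early differentiation, rose by 6.19 and 6.12 (log2). Of 3 marker genes of dividing cells, 3 fell in DM in vector cells and 2 in shRNA cells, and in DM all 3 were higher in shRNA than in vector cells. Whether this difference in dividing-cell markers bears on the proteasome values was not tested. Ddx5 fell with the shRNA in DM, with a difference from vector cells of -0.68 ± 0.16 (adjusted p = 0.00677), whereas in GM its difference of -0.31 ± 0.16 (adjusted p = 0.287) did not pass. Ddx17, the gene of p72, differed by 0.10 ± 0.09 (adjusted p = 0.516) in DM and 0.02 ± 0.09 (adjusted p = 0.929) in GM, neither of which passed. Mean correlation of an array with its group ranged from 0.951 (DM vector replicate 3) to 0.983 on MA and from 0.825 to 0.886 on MB. In these bulk samples, fewer cells of a kind and less RNA per cell cannot be told apart.

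In vector cells, the change from GM to DM went with higher signals of many proteasome subunits, most of them in the cap, and with lower signals of both measurable inducible genes. Of the 63 tested proteasome probe sets, 22 rose and 10 fell, or 34.9% and 15.9%, where 23.9% of all 14367 tested MA probe sets rose and 25.4% fell. Their median log2 change was 0.19, against 0.01 for all tested probe sets. Counted once each, 16 of 42 genes rose and 6 fell. The cap accounted for 10 of the 16: 10 of its 17 genes rose and 1 fell, with a median of 0.37, whereas in the core 5 of 14 rose and 1 fell, with a median of 0.10. The parts were not tested against each other. No single left-out array moved these counts of probe sets by over 1.5 times: the number that rose ranged from 18 to 25 and the number that fell from 8 to 12.

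**Figure D1:**
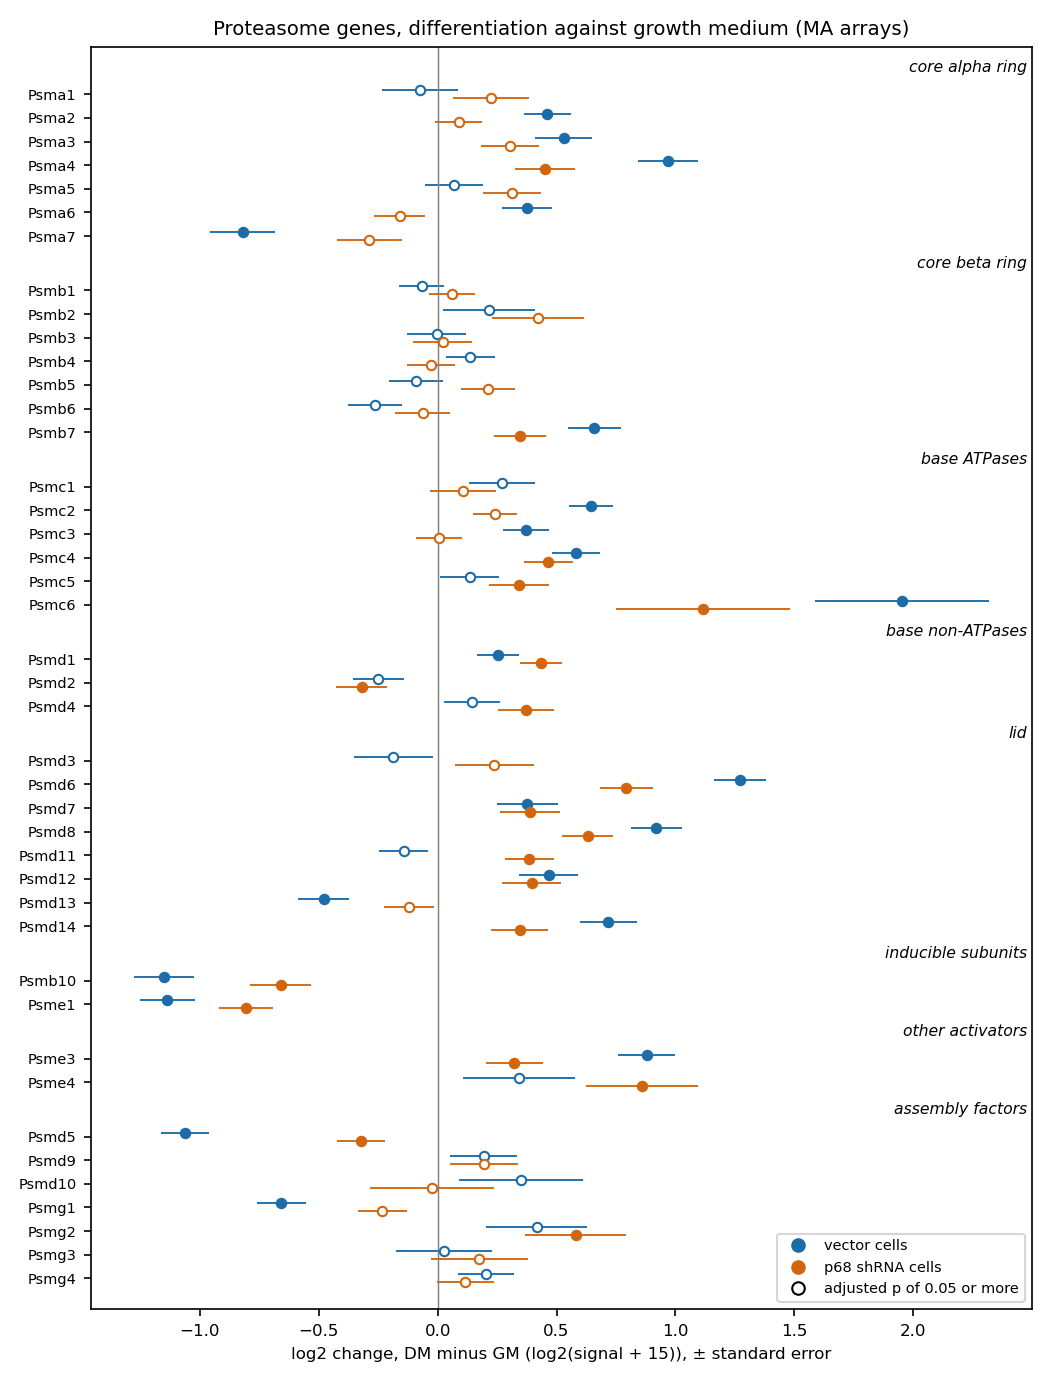
Log2 change of DM against GM, with its standard error, for the brightest tested MA probe set of each of 42 genes, in vector cells (blue) and p68 shRNA cells (orange), grouped by the part of the proteasome. Filled points passed at an adjusted p under 0.05: 10 of 17 cap genes lie to the right of 0 and filled in vector cells, and Psmb10 and Psme1 lie to the left of 0 in both kinds of cell.

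Among the alpha subunits, which gate the core, Psma4 gave the largest rise. Its signal (probe set 1460339_at) was 586.1, 534.2 and 652.9 in vector cells in GM and 1203, 1223 and 1079.5 in DM, a change of 0.97 ± 0.13 (adjusted p = 1.42e-05). The DM arrays of Psma4 all lay above the GM arrays. Psma3 rose by 0.53 ± 0.12, Psma2 by 0.46 ± 0.10 and Psma6 by 0.38 ± 0.11, all of them structural alpha subunits. Psma7, also an alpha subunit, fell. Its signal was 1897, 1457 and 1867 in GM and 1072, 937.6 and 914.4 in DM, a change of -0.82 ± 0.14 (adjusted p = 0.000165), with no overlap, and its second probe set changed by -0.84 ± 0.14. Psma1 (-0.08) and Psma5 (0.07) did not pass.

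Of the beta subunits, Psmb7, which carries the trypsin-like activity, was the only 1 of 7 genes that rose. Its signal was 2358, 2508 and 2491 in GM and 3332, 3955 and 4433 in DM, a change of 0.66 ± 0.11 (adjusted p = 0.000159), and the groups did not overlap. Psmb5, which carries the chymotrypsin-like activity, stood at 2161, 2604 and 2308 in GM and 2069, 2047 and 2532 in DM, a difference of -0.09 ± 0.11 (adjusted p = 0.537). Those groups overlapped. Psmb6, the caspase-like subunit, stood at 1743, 1942 and 1651 in GM and 1475, 1516 and 1437 in DM, a difference of -0.26 ± 0.12 (adjusted p = 0.0712), which did not pass although all DM arrays lay below the GM arrays. The other beta genes, Psmb1 to Psmb4, differed by -0.07, 0.22, -0.01 and 0.14, and none passed.

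The base ATPases, which unfold substrates and thread them into the core, rose in 4 of 6 genes and fell in none. Psmc6 gave the largest change of any member. Its signal (probe set 1417771_a_at) was 148.7, 129.5 and 168.9 in GM and 977.9, 860.6 and 275.5 in DM, a change of 1.95 ± 0.37 (adjusted p = 0.00045). All DM arrays of Psmc6 exceeded the GM arrays, but replicate 3 in DM stayed far below the other two. The change was 2.51 without that array and 1.63 without DM replicate 1. Its other tested probe set, of lower signal, changed by 0.94 ± 0.35 (adjusted p = 0.0378). Psmc2 rose by 0.64 ± 0.09, Psmc4 by 0.58 ± 0.10 and Psmc3 by 0.37 ± 0.10. Another probe set of Psmc2, 1435859_x_at, had a mean signal of 1453 beside 1502 for the brightest. It read 0.24 ± 0.10 (adjusted p = 0.0516), which did not pass. A second probe set of Psmc4, with a lower signal, read -0.63 ± 0.41 (adjusted p = 0.229), so the sets of this gene did not give the same sign. Of the base subunits that are not ATPases, the scaffold Psmd1 rose by 0.25 ± 0.09 (adjusted p = 0.0268), a call that was lost without DM replicate 2 or 3 or GM replicate 3 or 4 (adjusted p from 0.0525 to 0.077). The ubiquitin receptor Psmd4 differed by 0.15 ± 0.12 (adjusted p = 0.333) at its brightest probe set and by 0.64 ± 0.11 (adjusted p = 0.000272) at another.

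In the lid, 5 of 8 genes rose and 1 fell. Psmd6, a structural lid subunit, had signals of 554.5, 505.0 and 573.4 in GM and 1345, 1468 and 1200.4 in DM, a change of 1.27 ± 0.11 (adjusted p = 2.54e-07). Psmd8, another structural subunit, had 921.7, 878.7 and 978.9 in GM and 1641, 2018 and 1656 in DM, a change of 0.92 ± 0.11 (adjusted p = 4.8e-06). Neither gene's groups overlapped. Psmd14, the deubiquitinase that releases ubiquitin chains from substrates, had 635.1, 569.5 and 691.9 in GM and 1181, 1079 and 898.2 in DM, a change of 0.72 ± 0.12 (adjusted p = 0.000163). Psmd12 and Psmd7, both lid scaffolds, rose by 0.47 ± 0.12 and 0.38 ± 0.13, and the call of Psmd7 was lost without GM replicate 1 or 3 or DM replicate 1 (adjusted p from 0.0507 to 0.118). Psmd13, also of the lid, fell, with a change of -0.48 ± 0.11 (adjusted p = 0.00157), and its second probe set fell too, by 0.42 ± 0.12. Psmd3 (-0.19) did not pass. The brightest probe set of Psmd11 (-0.14) did not pass either, while sets of lower signal changed by -0.68 ± 0.16 (adjusted p = 0.00237) and -0.40 ± 0.15 (adjusted p = 0.036).

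**Figure D2:**
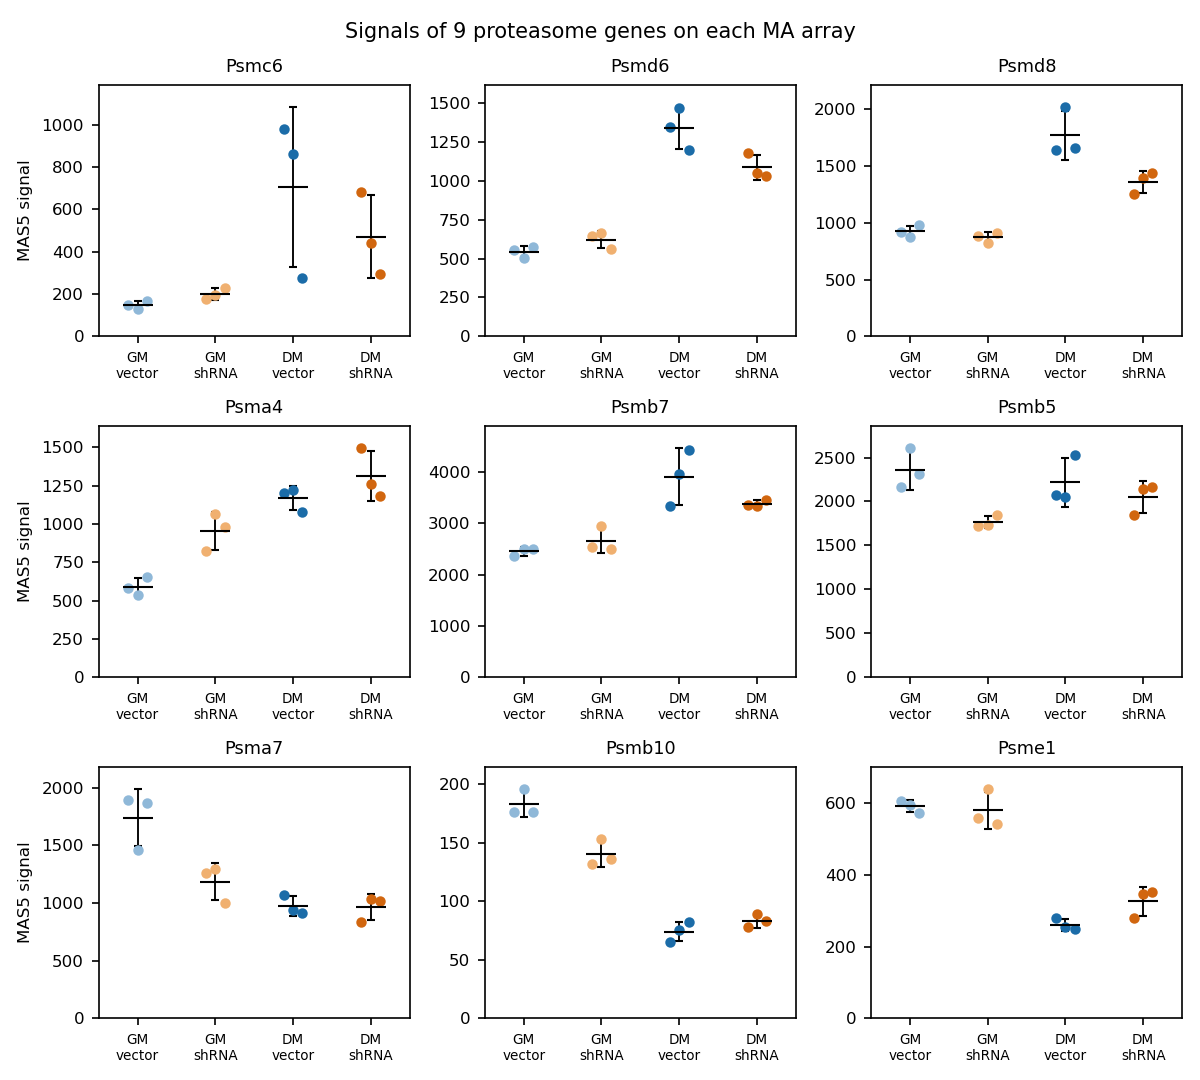
MAS5 signal (linear axis from 0) of 9 genes on each MA array, 1 point per array, in the 4 groups, with the group mean and its SD (n = 3). The DM points of Psmc6 and Psmd6 lie above the GM points and those of Psmb10 and Psme1 below, and Psmc6 in vector cells in DM spreads from 275.5 to 977.9.

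Both tested inducible genes fell. Psmb10, the interferon-inducible counterpart of Psmb7, had signals of 176.4, 195.5 and 176.2 in vector cells in GM and 65.4, 75.0 and 81.9 in DM, a change of -1.15 ± 0.13 (adjusted p = 2.85e-06). Psme1, a subunit of the PA28 activator, had 605.7, 594.7 and 572.7 in GM and 279.9, 253.8 and 248.7 in DM, a change of -1.14 ± 0.12 (adjusted p = 1.21e-06). For both genes every DM array lay below every GM array. Psmb8 and Psmb9, the other inducible catalytic subunits, had mean signals of 7.74 and 15.3 over the 12 arrays and were not tested. Psmb9 read 9.80, 13.5 and 9.08 in GM and 24.3, 19.4 and 26.1 in DM, below the limit of 30 on each. The MA probe set for Psme2 carries several symbols and was no member. Leukocytes are rich in inducible subunits, and for 12 leukocyte markers the summed signal per array ranged from 314.1 to 400.4 in GM and from 254.3 to 452 in DM in vector cells, with 9 and 7 of the markers at a mean under 30 and the pan-leukocyte marker Ptprc at a mean of 5.07 and 5.78. The monocyte marker Cd14 fell by 0.85 and the macrophage marker Adgre1 rose by 0.75 in these cells, and their part in the result was not tested.

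Of the other activators, which dock on the core in place of the cap, Psme3 rose and Psme4 differed between its probe sets. Psme3, the nuclear PA28-gamma, had signals of 132.4, 143.7 and 129.6 in GM and 251.1, 292.5 and 242.4 in DM, a change of 0.88 ± 0.12 (adjusted p = 2.29e-05), without overlap. Its second tested probe set changed by 0.80 ± 0.24 (adjusted p = 0.012), with overlap. Psme4, which encodes PA200, stood at 142.2, 130.7 and 140.4 in GM and 241.8, 230.7 and 99.8 in DM at its brightest probe set, a difference of 0.34 ± 0.24 (adjusted p = 0.25), with overlap, and at 1426824_at it rose by 1.33 ± 0.25 (adjusted p = 0.000417). Among the 7 assembly factors, none rose at its brightest probe set and 2 fell. Psmd5, a chaperone that holds base ATPases during cap assembly, had 475.5, 515.4 and 496.0 in GM and 229.9, 235.8 and 221.4 in DM, a change of -1.07 ± 0.10 (adjusted p = 6.15e-07). Psmg1, a chaperone of alpha ring assembly, changed by -0.66 ± 0.10 (adjusted p = 9.84e-05). Psmg2, its partner, differed by 0.42 ± 0.21 (adjusted p = 0.122) at its brightest set and by 0.63 ± 0.18 (adjusted p = 0.0104) at the other, with the same sign. Psmg3, Psmg4, Psmd9 and Psmd10 did not pass.

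Proteasome genes are known to be induced as a group by the transcription factor Nfe2l1 (Nrf1), which binds antioxidant response elements, and the promoters of 4 members are shown because they hold the letters of that element's core and yet differed in their response. RefSeq promoter windows, from 250 bases before to 50 after the gene start on build GRCm38.p6, matched 38 of the 46 genes (40 windows). Psma8, Psmb1, Psmb2, Psmb7, Psmc3, Psmd3, Psmd7 and Psmg2 are without one here. Each line gives the 250 bases before the start, 5′ to 3′ on the gene's strand, with the first match to TGACNNNGC on either strand in capitals. Psmc6 (chr14:45329574-45329823, plus strand) and Psmd12 (chr11:107479278-107479527, plus strand) rose in DM, and Psmb5 (chr14:54617996-54618245, minus strand) and Psmb6 (chr11:70525107-70525356, plus strand) did not pass.
Psmc6: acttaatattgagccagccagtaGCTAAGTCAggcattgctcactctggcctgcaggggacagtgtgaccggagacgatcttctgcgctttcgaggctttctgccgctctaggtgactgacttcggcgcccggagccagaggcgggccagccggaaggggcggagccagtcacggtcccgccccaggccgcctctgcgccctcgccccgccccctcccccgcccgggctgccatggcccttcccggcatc
Psmd12: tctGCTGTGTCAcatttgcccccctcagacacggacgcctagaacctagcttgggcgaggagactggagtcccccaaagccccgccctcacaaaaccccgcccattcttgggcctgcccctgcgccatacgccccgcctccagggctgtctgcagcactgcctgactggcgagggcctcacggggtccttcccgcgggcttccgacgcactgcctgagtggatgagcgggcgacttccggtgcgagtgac
Psmb5: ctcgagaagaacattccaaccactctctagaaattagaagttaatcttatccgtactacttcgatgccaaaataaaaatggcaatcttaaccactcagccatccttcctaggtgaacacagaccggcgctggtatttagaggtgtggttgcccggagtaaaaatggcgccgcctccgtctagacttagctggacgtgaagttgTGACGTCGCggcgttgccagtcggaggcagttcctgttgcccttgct
Psmb6: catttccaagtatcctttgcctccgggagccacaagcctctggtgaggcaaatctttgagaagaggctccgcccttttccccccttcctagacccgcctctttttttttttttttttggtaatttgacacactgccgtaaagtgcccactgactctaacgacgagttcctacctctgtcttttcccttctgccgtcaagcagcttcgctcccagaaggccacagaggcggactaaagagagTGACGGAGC

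Counted in bases from the gene start, the matches begin at -227 in Psmc6, -247 in Psmd12, -47 in Psmb5 and -9 in Psmb6. The letters occurred in 6 of the 40 member windows, or 15%, those of Psmb5, Psmb6, Psmc6, Psmd9, Psmd12 and Psme4, against 12.4% of all 32851 windows. CCAAT, the NF-Y box, was in 35% of member windows and 37.4% of all, and CANNTG, the E-box bound by myogenic factors, in 62.5% and 72.3%. Paired GAAA letters with 2 bases between them, the core of the interferon-stimulated response element, were in 12.5% of member windows, those of Psmb3, Psmd4, Psmd9, Psme1 and Psmg4, and in 3.44% of all. Each motif was read on both strands and matches of different motifs may overlap. A match describes the letters of the window and is no evidence of binding. The window of Psmb10, which also fell in DM, held no match to these GAAA letters, nor did those of Psmb8, Psmb9 and Psmb11. Psmb3, Psmd4, Psmd9 and Psmg4, which hold a match, did not fall in DM in vector cells. The match of Psme1, which fell in DM, begins 9 bases after its start and reads as follows within chr14:55578493-55578522 (plus strand, motif on the other strand in capitals).
Psme1: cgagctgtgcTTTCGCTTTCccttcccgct

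In shRNA cells, 11 of the 17 cap genes rose in DM and 1 fell, both tested inducible genes fell, and 2 core genes rose. Of the 63 probe sets, 22 rose and 6 fell, or 34.9% and 9.52%, where 16.3% of all tested probe sets rose and 17.5% fell, and their median was 0.24 against 0 for all. Of the 42 genes, 16 rose and 4 fell: in the cap 11 of 17 rose and 1 fell (median 0.37), and in the core 2 of 14 rose and none fell (median 0.15). Leaving out GM shRNA replicate 3 or DM shRNA replicate 1 lowered the number of rising probe sets to 13, and the other arrays gave up to 16. The number that fell was 2 without DM shRNA replicate 3 and 3 without DM shRNA replicate 1.

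Psmd6 had signals of 644.3, 662.5 and 558.8 in shRNA cells in GM and 1179, 1053 and 1030.0 in DM, a change of 0.79 ± 0.11 (adjusted p = 6.67e-05). Psmd8 had 884.3, 825.7 and 912.6 in GM and 1254, 1394 and 1443 in DM, a change of 0.63 ± 0.11 (adjusted p = 0.00035). The DM arrays of both genes lay above the GM arrays. Psmc6 had 174.0, 193.9 and 228.1 in GM and 680.8, 438.5 and 294.4 in DM, a change of 1.12 ± 0.37 (adjusted p = 0.0293). Its groups did not overlap, but the call was lost without GM shRNA replicate 2 or 3 or DM shRNA replicate 1 or 2 (adjusted p from 0.0656 to 0.14). Among the other cap genes, Psmc4 rose by 0.47 ± 0.10 and Psmd1 by 0.44 ± 0.09, and both calls held without any 1 array. Psmd11, a lid subunit, rose by 0.39 ± 0.10 (adjusted p = 0.00944) at its brightest probe set. Psmd2, a base scaffold, changed by -0.32 ± 0.11 (adjusted p = 0.0319), a call lost without any of 5 of the 6 arrays compared.

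Psma4 had signals of 821.6, 1064 and 981.2 in GM and 1494, 1258 and 1184 in DM, a change of 0.45 ± 0.13 (adjusted p = 0.0117) that was lost without GM shRNA replicate 2 (adjusted p = 0.0643) or DM shRNA replicate 1 (adjusted p = 0.0628). Psmb7 had 2544, 2940.5 and 2502 in GM and 3359, 3328 and 3462 in DM, a change of 0.35 ± 0.11 (adjusted p = 0.0239). The groups of neither gene overlapped, and no other core gene was called at its brightest probe set. Psmb4 fell at its second probe set, with -0.92 ± 0.29 (adjusted p = 0.0241), where its brightest set read -0.03 ± 0.10. The suffix of that set (_x_at) marks probes that can bind other transcripts. Psmb10 had 132.1, 153.5 and 136.1 in GM and 77.7, 89.2 and 82.9 in DM, a change of -0.66 ± 0.13 (adjusted p = 0.000995). Psme1 had 558.7, 637.5 and 541.0 in GM and 278.2, 346.4 and 352.6 in DM, a change of -0.81 ± 0.12 (adjusted p = 8.31e-05), and the groups of both inducible genes stayed apart. The leukocyte markers summed to 360.9 to 445.7 per array in GM and 298.8 to 384.7 in DM in these cells, where Cd14 fell by 0.70 ± 0.20 (adjusted p = 0.0123), and their part in the result was not tested. Psme4 had 140.0, 113.3 and 146.9 in GM and 286.7, 239.0 and 235.7 in DM, a change of 0.86 ± 0.24 (adjusted p = 0.0111) that held without any 1 array, and its other sets rose by 1.65 and 0.74.

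Altogether 12 of the 20 calls at a gene's brightest probe set in shRNA cells were lost when 1 array was left out: those of Psma4, Psmb7, Psmc5, Psmc6, Psmd2, Psmd4, Psmd5, Psmd7, Psmd12, Psmd14, Psme3 and Psmg2. The loss took 10 calls without DM shRNA replicate 1, 9 without DM shRNA replicate 3, GM shRNA replicate 3 or GM shRNA replicate 4, 8 without DM shRNA replicate 2 and 6 without GM shRNA replicate 2, with adjusted p from 0.0528 to 0.222. The change of Psmd14 was 0.35 ± 0.12 (adjusted p = 0.0377), that of Psmd4, the ubiquitin receptor, 0.37 ± 0.12 (adjusted p = 0.0239), and that of Psme3 0.32 ± 0.12 (adjusted p = 0.0495). At its second tested probe set Psme3 rose by 1.13 ± 0.24 (adjusted p = 0.00206). Of the 22 calls in vector cells, those of Psmd1 and Psmd7 were lost in this way.

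In DM, shRNA cells had lower signals of several base ATPases than vector cells. Of the 63 probe sets, 2 were higher and 6 lower in shRNA cells, or 3.17% and 9.52%, where 10.7% of all tested probe sets were higher and 6.24% lower. The members' median was -0.12 and that of all probe sets 0.05. After quantile normalization these medians were closer, at -0.072 and -0.013. Of 9 tested ATPase probe sets, 3 were lower and none had a positive value, where 56.1% of all tested probe sets were positive. Of the 6 ATPase genes, 3 were lower. No core probe set passed of 21 (limma, 3 at an unadjusted p under 0.05). Without DM vector replicate 1 the number higher was 5, without DM vector replicate 2 or 3 or DM shRNA replicate 2 or 3 it was 1, and the number lower ranged from 4 to 8.

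Psmc3 had signals of 2631, 2960.2 and 2662 in vector cells and 1881, 1974 and 1998 in shRNA cells in DM, a difference of -0.49 ± 0.10 (adjusted p = 0.0028). Psmc2 had 2048, 2001 and 1954 in vector and 1621, 1341 and 1488 in shRNA cells, a difference of -0.43 ± 0.09 (adjusted p = 0.00456). Psmc4 had 905.5, 993.7 and 1069.8 in vector and 681.2, 794.3 and 720.4 in shRNA cells, a difference of -0.43 ± 0.10 (adjusted p = 0.00942). At these probe sets all shRNA arrays lay below the vector arrays. Second probe sets of Psmc2 (-0.28 ± 0.10, adjusted p = 0.0608) and Psmc4 (-0.11 ± 0.41, adjusted p = 0.893) did not pass. In a fit of only the 6 arrays compared, the call of Psmc4 was lost (adjusted p = 0.0551), and 3 probe sets in place of 6 were lower. The lid subunit Psmd8, whose DM signals stand above for both kinds of cell, differed by -0.37 ± 0.11 (adjusted p = 0.0266), a call lost without DM vector replicate 2 or DM shRNA replicate 1 or 2 (adjusted p from 0.0653 to 0.118). Psme3 had 251.1, 292.5 and 242.4 in vector cells and 184.4, 162.4 and 189.7 in shRNA cells, a difference of -0.51 ± 0.12 (adjusted p = 0.00788). This was not seen at its second tested probe set, 1418078_at, which read 0.03 ± 0.24 (adjusted p = 0.96) with overlapping groups. Psmd5 was the only gene higher at its brightest probe set, with 229.9, 235.8 and 221.4 in vector cells and 319.2, 326.5 and 308.6 in shRNA cells, a difference of 0.45 ± 0.10 (adjusted p = 0.00654). The other higher probe set was 1456059_at of Psmd11, with a difference of 0.49 ± 0.15 (adjusted p = 0.0358). Also lower was 1425859_a_at of the base subunit Psmd4, with -0.39 ± 0.11 (adjusted p = 0.0271). The brightest set of Psmd4 read -0.27 ± 0.12 (adjusted p = 0.139). Psmb10 differed by 0.14 ± 0.13 (adjusted p = 0.502) and Psme1 by 0.30 ± 0.12 (adjusted p = 0.0941), neither of which passed.

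**Figure D3:**
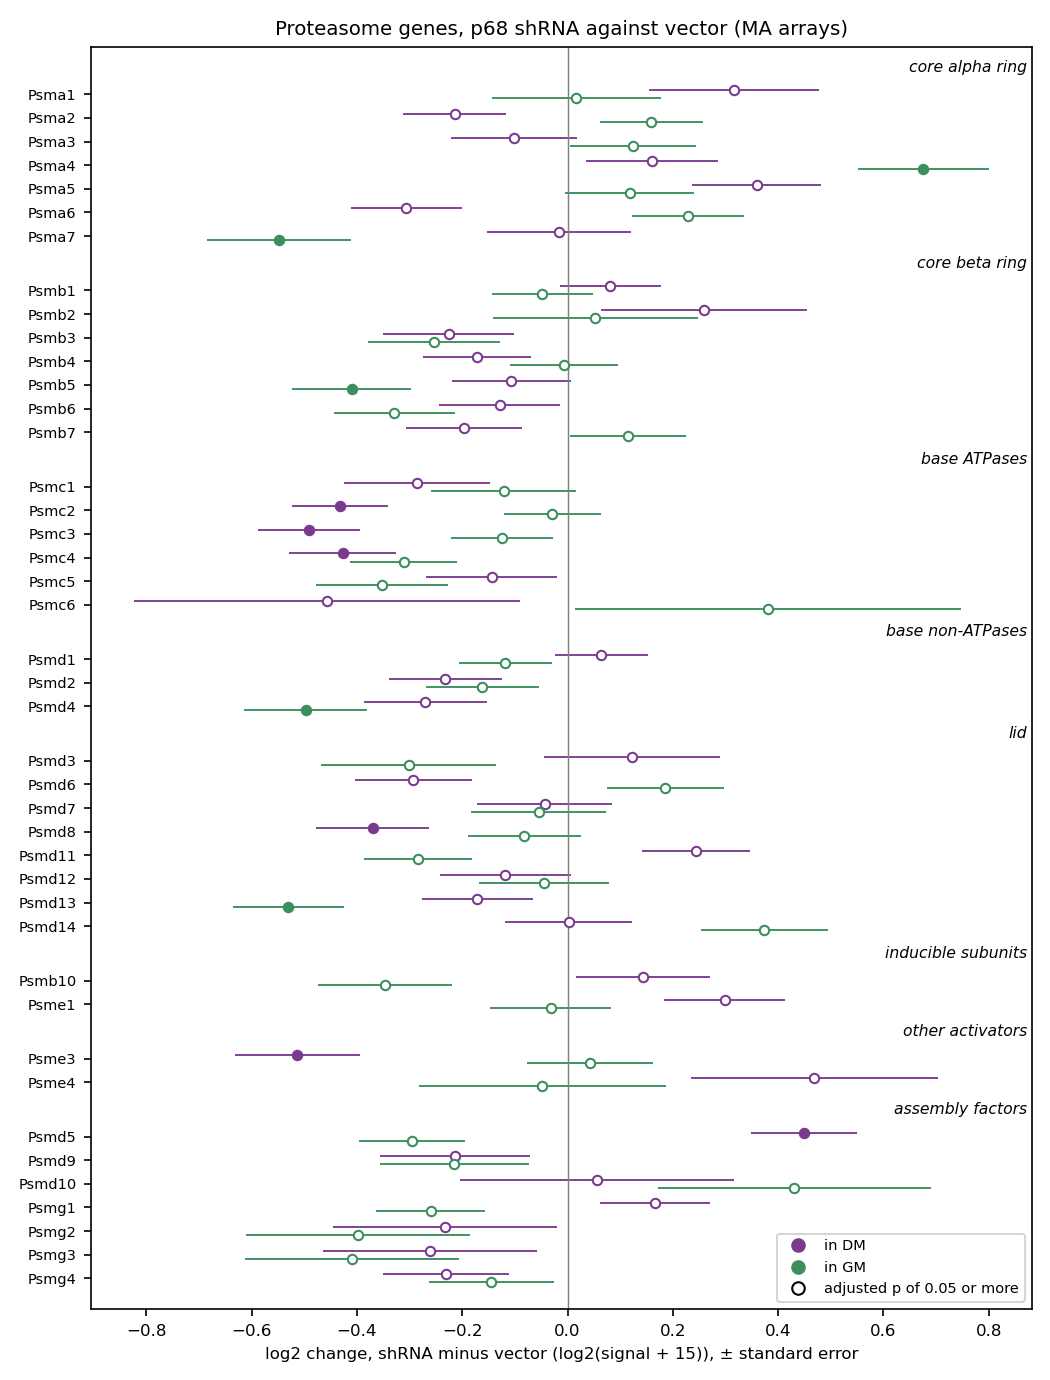
Log2 difference of p68 shRNA against vector cells, with its standard error, for the brightest tested MA probe set of each of 42 genes, in DM (purple) and GM (green), grouped by the part of the proteasome. Filled points passed at an adjusted p under 0.05, and in DM all 6 ATPase genes lie to the left of 0, with Psmc2, Psmc3 and Psmc4 filled.

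In GM, 1 subunit was higher and 4 were lower in shRNA than in vector cells, and 3 of these 5 calls were lost when 1 array was left out. Of the 63 probe sets, 1 was higher and 4 were lower in shRNA cells, or 1.59% and 6.35%, where 3.99% of all tested probe sets were higher and 2.57% lower, with medians of -0.13 and 0.04. After quantile normalization the medians were -0.105 and -0.015. Of the 26 cap probe sets, 4 were positive and 22 negative, where 55.6% of all tested probe sets were positive. Some of the 26 belong to the same gene and are not separate observations. Psma4 was higher, as its GM signals given above show, by 0.68 ± 0.13 (adjusted p = 0.00538), with no overlap. Psmd13 had 843.8, 937.0 and 846.5 in vector cells and 565.6, 672.3 and 571.5 in shRNA cells, a difference of -0.53 ± 0.11 (adjusted p = 0.0084), and those calls held without any 1 array. The second probe set of Psmd13 read -0.25 ± 0.12 (adjusted p = 0.247), with overlap. Psma7 had 1258, 1299 and 999.1 in shRNA cells, a difference of -0.55 ± 0.14 (adjusted p = 0.0278) from the vector cells. Psmb5 had 1726, 1727 and 1846, a difference of -0.41 ± 0.11 (adjusted p = 0.0434). Psmd4 had 1508, 1519 and 1416 in vector cells and 1118, 1021 and 997.4 in shRNA cells, a difference of -0.50 ± 0.12 (adjusted p = 0.0207). The call of Psmb5 was lost without any 1 of the 6 arrays (adjusted p from 0.0662 to 0.19), that of Psma7 without GM vector replicate 1 or 4 or GM shRNA replicate 2 or 4 (0.0555 to 0.126), and that of Psmd4 without GM vector replicate 1 or 3 or GM shRNA replicate 3 or 4 (0.0696 to 0.0871). The number lower was 1 without GM vector replicate 1 or GM shRNA replicate 4 and 2 without any other array.

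Whether the response to DM itself differed between vector and shRNA cells was tested as the interaction of medium and shRNA, since a change that passes in one kind of cell and not in the other is not thereby different. Of the 63 probe sets, 4 had a positive and 1 a negative interaction past the threshold, or 6.35% and 1.59%, where 5.48% and 4.48% of all tested probe sets did. The 4 positive ones were Psmd5 and 3 probe sets of Psmd11, and the negative one was a set of Psma6. The medium changes of Psmc6, Psmb10, Psme1 and the other named genes did not pass this test.

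Psmd5 fell less in shRNA cells. In vector cells it read as given above, and in shRNA cells 439.7, 390.7 and 375.2 in GM and 319.2, 326.5 and 308.6 in DM, a change of -0.32 ± 0.10 (adjusted p = 0.0234) beside -1.07 ± 0.10 in vector cells. The difference between these changes was 0.74 ± 0.14 (adjusted p = 0.00438), which passed without any 1 array and under every alternative tried, with values from 0.67 to 0.81. The lid subunit Psmd11 (probe set 1437080_s_at) had 2091, 1828 and 1883 in GM and 1815, 1589.5 and 1849 in DM in vector cells, with overlapping groups, and 1722, 1614 and 1428 in GM and 2028, 2133 and 2059 in DM in shRNA cells, with none. The changes were -0.14 ± 0.10 (adjusted p = 0.272) and 0.39 ± 0.10 (adjusted p = 0.00944), and their difference was 0.53 ± 0.15 (adjusted p = 0.033). The other tested MA sets of Psmd11 gave differences of 0.78 ± 0.22 (adjusted p = 0.0394), 0.72 ± 0.20 (adjusted p = 0.0323) and 0.68 ± 0.21 (adjusted p = 0.0561), all of the same sign. On MB, the tested sets of Psmd11 had low signals and did not share a sign. They read -0.44 ± 0.84 (adjusted p = 0.947) at 1432726_at and 0.17 ± 0.57 (adjusted p = 0.972) at 1432727_at.

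Psma6 (probe set 1437144_x_at) had 1209.6, 1177 and 1278 in GM and 1587, 1452 and 1737 in DM in vector cells, and 1269.9, 1535 and 1512 in GM and 1376, 1254 and 1219.8 in DM in shRNA cells. The changes were 0.38 ± 0.11 (adjusted p = 0.00874) and -0.16 ± 0.11 (adjusted p = 0.274), and their difference was -0.54 ± 0.15 (adjusted p = 0.0367). A second set, 1416506_at, gave -0.43 ± 0.17 (adjusted p = 0.125). The differences of Psmd11 at its brightest set and of Psma6 were lost when any of 8 and of 7 of the 12 arrays was left out (adjusted p from 0.0524 to 0.0935). For Psmd11 these were GM vector replicates 1 and 4, GM shRNA replicates 3 and 4, DM vector replicate 2 and all 3 DM shRNA arrays, and for Psma6 all 3 GM vector arrays, GM shRNA replicates 3 and 4 and DM shRNA replicates 2 and 3. Both calls were also lost without the filter on low signals (adjusted p = 0.0507 for Psmd11 and 0.052 for Psma6) and without the mean trend of the variance (0.0767 and 0.0799). Over the members, the number of positive interactions ranged from 1 to 6 and that of negative ones from 0 to 6, which was reached without DM vector replicate 3.

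**Figure D4:**
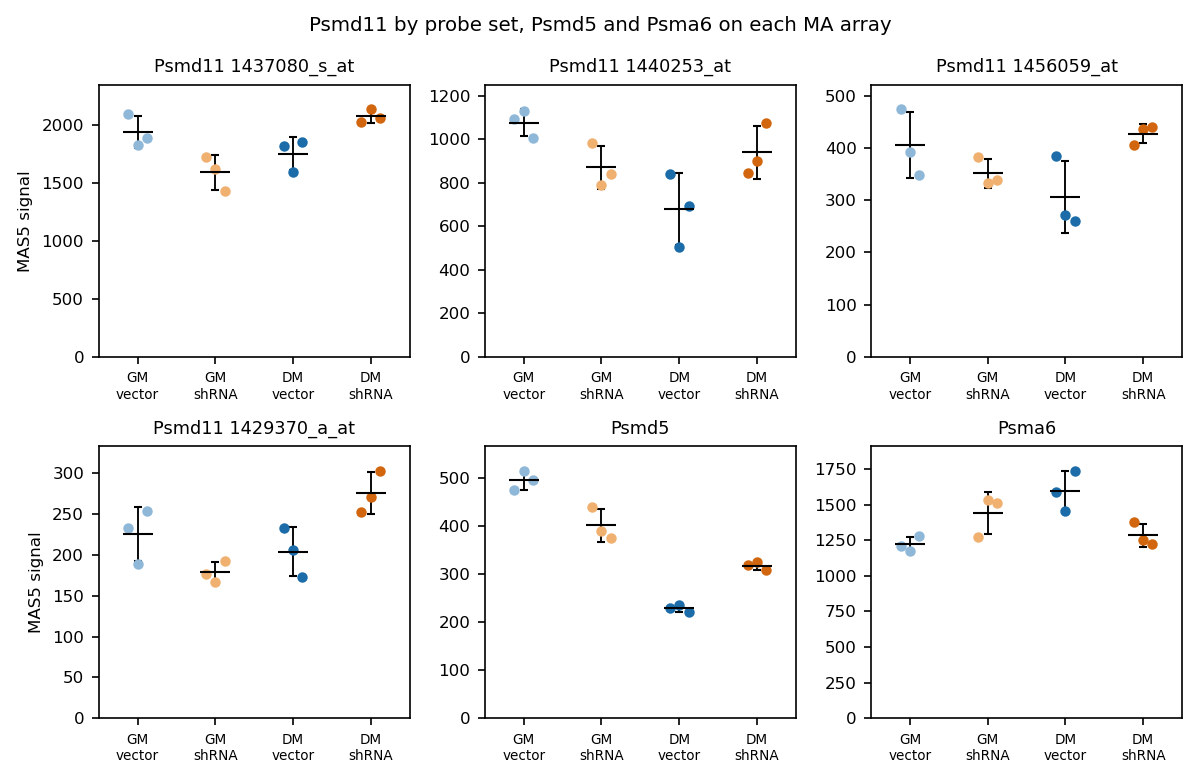
MAS5 signal (linear axis from 0) of 4 probe sets of Psmd11 and of the brightest sets of Psmd5 and Psma6 on each MA array, 1 point per array, in the 4 groups, with the group mean and its SD (n = 3). In DM the shRNA arrays of Psmd5 lie above the vector arrays, and in GM below them.

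On the second design, MB, 19 of 21 member probe sets were tested, 18 of them for proteasome genes, and limma called none of the 18 in any of the 5 comparisons. Among all tested MB probe sets, 9.21% passed in DM against GM in vector cells, 4.85% in shRNA cells, 1.17% and 0.275% in shRNA against vector cells in DM and GM, and 0.389% in the interaction. At an unadjusted p under 0.05 the counts were 1, 0, 2, 0 and 1. The 3 probe sets carried by both designs were those of Psma1, Psmb5 and Psmc5, and in vector cells they differed between media by 0.14 ± 0.16, 0.01 ± 0.17 and 0.33 ± 0.20 on MB and by -0.08 ± 0.16, -0.09 ± 0.11 and 0.13 ± 0.13 on MA. None passed on either design in that comparison. Calls made on MA at the sets of Psmc5 and Psmb5 in other comparisons had the same sign on MB but did not pass there. In shRNA cells, Psmc5 changed in DM by 0.34 ± 0.13 (adjusted p = 0.0476) on MA and 0.11 ± 0.20 (adjusted p = 0.898) on MB. In GM, Psmb5 differed between shRNA and vector cells by -0.41 ± 0.11 (adjusted p = 0.0434) on MA and -0.33 ± 0.17 (adjusted p = 0.735) on MB. Psmb11, a subunit of the thymus, had a mean MB signal of 73.8 and differed by -0.04 ± 0.50 (adjusted p = 0.983) between media in vector cells. Of the symbols that are no proteasome parts, Psmc3ip, a recombination factor, fell in DM, with changes of -0.70 ± 0.19 in vector and -0.62 ± 0.19 in shRNA cells on MA and -1.79 ± 0.46 (adjusted p = 0.0264) in shRNA cells on MB. Psme3ip1 rose in DM by 0.35 ± 0.10 (adjusted p = 0.0087) in vector cells.

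Genes that act with the proteasome were read from a list of 19 with an MA probe set: regulators, a maturation factor, shuttles and deubiquitinases. In DM, 7 rose and 2 fell in vector cells (median 0.12), where 23.9% and 25.4% of all tested probe sets did, and 4 rose and 1 fell in shRNA cells (median 0.25), where 16.3% and 17.5% did. Nfe2l1, the transcription factor of proteasome genes, ranged from 276.7 to 334.0 in GM and 925.3 to 1312 in DM in vector cells, a change of 1.81 ± 0.15 (adjusted p = 1.03e-07). In shRNA cells it ranged from 403.8 to 501.7 in GM and 744.3 to 931.9 in DM, a change of 0.87 ± 0.15 (adjusted p = 0.000314). The difference between these changes was -0.95 ± 0.21 (adjusted p = 0.00917). Zfand5, an activator of the proteasome in muscle wasting, rose by 1.67 ± 0.14 (adjusted p = 2.02e-07) and 0.84 ± 0.14 (adjusted p = 0.000367), with a difference of -0.83 ± 0.20 (adjusted p = 0.0176). Ecpas, which tethers core to cap, rose by 1.14 and Pomp, which matures the core, by 0.76 in vector cells. At its brightest MB probe set, Ecpas differed by 0.005 ± 0.37 (adjusted p = 0.997) in these cells. Ubqln2, a shuttle for ubiquitinated proteins, fell in both, with changes of -1.32 in vector and -0.62 in shRNA cells. In DM, 1 of the 19 was higher in shRNA than in vector cells and 3 were lower, where 10.7% and 6.24% of all tested probe sets were. The higher one was Ubqln2, by 0.70 ± 0.19 (adjusted p = 0.0168). The 3 that were lower had differences of -0.48 for Nfe2l1, -0.38 for Nfe2l2, a stress-response factor of the same family, and -0.73 for Zfand5. In GM, 1 was higher, Zfand2a, by 0.63 ± 0.15 (adjusted p = 0.0181), and none lower, beside 3.99% and 2.57% of all tested probe sets.

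A second list held genes of MHC class I presentation, which uses the peptides that the inducible subunits make, and factors of the interferon pathway such as Irf1 and Stat2. It had 15 genes with an MA probe set, of which 11 were tested at their brightest set. In vector cells, 5 fell and 1 rose in DM, with a median of -0.22, where 25.4% of all tested probe sets fell and 23.9% rose. H2-K1, a class I heavy chain, changed by -1.08 ± 0.15 (adjusted p = 3.41e-05) and Tapbp, the peptide-loading factor tapasin, by -0.95 ± 0.17 (adjusted p = 0.000356), while Tap2, a peptide transporter subunit, rose by 0.65 ± 0.17 (adjusted p = 0.00517). Irf1, a transcription factor of the interferon response and no part of the presentation machinery, was among the 5, with -0.62 ± 0.12 (adjusted p = 0.000638). In shRNA cells 1 fell, H2-D1, by 0.75 ± 0.13 (adjusted p = 0.000398), and none rose, where 17.5% and 16.3% of all tested probe sets did. H2-K1 differed there by -0.006 ± 0.15. It alone passed in the interaction of medium and shRNA, with 1.07 ± 0.215 (adjusted p = 0.00576), where 5.48% of all tested probe sets were positive and 4.48% negative. The sets read for H2-K1 and H2-D1 carry the suffix _x_at, so they can bind other transcripts. Between the cells, 4 were higher with shRNA in DM and 3 in GM, beside 10.7% and 3.99% of all tested probe sets, and none was lower, beside 6.24% and 2.57%. Among the higher genes were Tapbp at 1.15 ± 0.17 (adjusted p = 0.000374) in DM and B2m, the class I light chain, at 0.64 ± 0.12 (adjusted p = 0.00628) in GM. Psmb10 and Psme1 passed in neither of these comparisons of shRNA with vector cells. The comparisons of shRNA with vector cells and of DM with GM share arrays, so their values stand side by side and are not independent.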

How the data were processed

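RNA of C2C12 cells was hybridised to 24 Affymetrix arrays, 12 of each of 2 designs, in 4 groups of 3 taken from the sample titles. The deposited values are intensities, made by the authors with MAS5 per the submitters' processing notes, whose version is not given in the sources used here. The values held no negative number and each array's mean, trimmed by 2% at each end, was about 150.07 on MA and 150.03 on MB, so they were used without further scaling. A MAS5 intensity is scaled to a common array mean, so a change of total RNA per cell cannot be seen. Depth has no meaning for arrays, and their number limits the precision.

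Values were tested as log2(signal + 15) with limma 3.58.1 in R 4.3.3, each design apart: 4 group means, 8 residual degrees of freedom, moderated variances with a mean trend, and Benjamini-Hochberg adjustment over all probe sets with a signal of at least 30 on 3 or more arrays (14367 on MA, 19303 on MB). Control probe sets were left out. The procedure was tested on simulated data. Symbols came from the platform annotation, in which 691 MA and 245 MB probe sets carry several and were not used. Members were grouped by their part in the proteasome. A gene was given by its tested probe set with the highest mean signal, and the text names the catalytic and inducible subunits, the activators, Psmd4 and Psmd14, and per class and comparison up to 4 genes with the largest rise and fall among those that passed. Further probe sets of a gene, and genes outside this rule, were named after their values were seen. Members and lists were chosen with earlier results of these data known. Alternatives were pseudocounts of 1 and 50, no filter or a filter at 100, quantile normalization, no mean trend, a replicate block, only the arrays compared, 1 probe set per gene and each array left out in turn. Probe sets with the suffixes _s_at and _x_at can bind several transcripts, and members with close relatives or pseudogenes are uncertain to that extent.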

Additional observations from a re-analysis of the deposited data

Results flagged for a closer look

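The change from GM to DM differed between vector and shRNA cells, by the interaction test across all MA probe sets, for 5 member probe sets. Of the 63 tested, 6.35% had a positive and 1.59% a negative difference, where 5.48% and 4.48% of all tested probe sets did. The difference in log2 change, shRNA minus vector cells, was 0.74 for Psmd5 (probe set 1423234_at), an assembly chaperone of the cap base. It was 0.78, 0.72 and 0.53 for the probe sets 1440253_at, 1429370_a_at and 1437080_s_at of Psmd11, a lid subunit, and -0.54 for the probe set 1437144_x_at of Psma6, an alpha subunit. The calls at 1437080_s_at and at the set of Psma6 were lost without any of 8 and of 7 of the 12 arrays. Groups of 3 arrays are too small to single out an array by its distance from the others. The causes were not tested.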

How the results depend on the processing

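All counts here are of proteasome probe sets. Of 54 named changes past the threshold, 34 passed under every alternative and 20 were lost in at least 1. No named value that passed turned its sign. Over all named values, with 1 array left out, 534 comparisons with the original kept their side of the threshold, 87 lost it and 3 gained it. Under the other settings these counts were 665, 37 and 4. The comparisons that kept their side include those of named values that did not pass in the original and stayed above 0.05. The counts therefore do not give the share of passing values that was lost. The causes were not tested.

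On MA, the interaction of medium and shRNA gave 4 positive and 1 negative. Negative ones were 2 at a pseudocount of 50, 0 without the filter on low signals, 4 with a filter at 100, 0 without the mean trend and 2 with 1 probe set per gene. Positive ones were 2 without the filter, without the trend and with 1 probe set per gene. For shRNA against vector cells in DM, the number higher (2) was 1 without the filter, without the trend and with only the arrays compared, and 5 with a filter at 100 and after quantile normalization, and the number lower (6) was 3 with only the arrays compared. In GM the number lower (4) was 1 without the trend. In vector cells, the number that fell in DM (10) was 6 with 1 probe set per gene, which has fewer to count. On MB, 1 probe set fell in vector cells after quantile normalization, where none did before.

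With 1 array left out on MA, the number that rose in DM ranged from 18 to 25 in vector and from 13 to 16 in shRNA cells, and the number that fell from 8 to 12 and from 2 to 6. In DM, 1 to 5 were higher and 4 to 8 lower in shRNA cells. In GM, 1 was higher each time and 1 to 2 lower. Interactions ranged from 1 to 6 positive and from 0 to 6 negative. MB gave 0 each time.

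Replicate numbers are shared between groups. As a check of pairing, the deviations of same-numbered MA arrays from their group means correlated from -0.139 to 0.293 (13 pairs, median 0.093, 6 over 0.1). Those of MA arrays with unlike numbers correlated from -0.277 to 0.204 (41 pairs, median -0.024, 5 over 0.1). Same-numbered MB arrays gave -0.039 to 0.07 (18 pairs, 0 over 0.1). Same-numbered MA arrays thus leaned to higher values, and whether the numbers mark pairs is not settled. The main fit did not take them as pairs. With the replicate number as a block, the number of positive interactions on MA was 2 in place of 4, and the other counts stayed within 1.5 times. In that fit 8 named calls did not pass: Psmd11 in the interaction (adjusted p = 0.055), Psmd1 in vector cells, Psmc5, Psmd2, Psmd7, Psmd12 and Psme3 in shRNA cells and Psma7 between the cells in GM.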
